A study of Mus musculus with 16 samples.

Results

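The gelsolin family genes were followed in bulk RNA sequencing of mouse flexor tendon, in 7 genes of the 49568 in the deposited count table: Gsn, Capg, Scin, Vil1, Avil, Svil and Flii. They were chosen by their symbols. Gsn entered because it takes the most counts in most uninjured libraries and Capg for its rise in injured MRL tendon, so measured values of these same libraries chose both. Their values in the comparisons that contain those libraries are therefore given as a description, with no test. The 16 libraries came from single tendons of male mice aged 9 to 11 weeks, 4 in each of 4 groups: C57BL/6J (C57) uninjured, C57 at 7 days after injury, MRL/MpJ (MRL) uninjured and MRL at 7 days after injury. The injury was a cut through about 50% of the width of the deep digital flexor tendon of the third hind digit. The MRL strain is known for unusually complete healing, and the comparisons ask how each strain responds to the cut and where the strains differ. Sheath and tissue around the tendon were left on, so the libraries mix several cell types.

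Proteins of this family are built from repeated gelsolin domains that bind actin, and most respond to calcium. Gelsolin (Gsn) cuts actin filaments and caps the fast-growing end, and a secreted form clears actin from plasma. Adseverin (Scin) cuts and caps in the same way. CapG (Capg) caps filaments without cutting them and is abundant in macrophages. Villin (Vil1) bundles and cuts actin in gut epithelium, advillin (Avil) is best known from sensory neurons, supervillin (Svil) anchors actin and myosin at membranes, and flightless (Flii) also acts in transcription and wound repair.

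Library totals ran from 12552424 to 23741648 counts. All 10 tendon fibroblast markers examined were found in every library, and their summed level did not overlap between the strains in either state. It was 38805 to 65386 CPM in uninjured C57 and 65702 to 96446 CPM in uninjured MRL libraries, and 34453 to 62713 against 70460 to 115860 CPM in injured ones. The lowest uninjured value of each strain belonged to the library labelled replicate 4. Without these libraries, uninjured C57 held 61546 to 65386 CPM and uninjured MRL 87601 to 96446 CPM. CPM are counts scaled to a common library total, here with library sizes adjusted by the trimmed mean of M-values (TMM). The library labelled C57 uninjured replicate 4 held 78412 CPM of 12 epidermal markers, against 24.8 to 715 CPM in the other 15 libraries. The library labelled C57 injured replicate 1 held 61631 CPM of 12 skeletal muscle markers. C57 injured replicate 2 held 1858 CPM of them, and the remaining libraries 4.67 to 22.6 CPM. Macrophage markers (12 genes) summed to 867 to 1911 CPM in uninjured and 3943 to 9356 CPM in injured libraries. Adipocyte markers (8 genes) also stood higher after injury, at 25.4 to 143 against 220 to 450 CPM in C57 and 6.89 to 110 against 117 to 311 CPM in MRL. Blood endothelium markers (8 genes) had medians of 50.3 CPM before and 204 CPM after injury in C57, and of 21.0 and 27.3 CPM in MRL. Schwann cell markers (8 genes) summed to 480 to 2185 CPM in C57, with medians of 1276 and 1463 CPM, while in MRL they were at 1184 to 1357 CPM before and 536 to 995 CPM after injury. The part of these cell types in the results below was not tested. In bulk tissue, fewer cells of a type and less RNA per cell cannot be told apart. Injured and uninjured libraries carry separate series of names, and whether they were prepared together is not given in the sources used here. Among injured libraries, the C57 ones are named BI-181 to BI-185 and the MRL ones BI-270 to BI-275. Their totals were 12883569 to 16579900 counts in C57 and 18524170 to 23741648 in MRL. Differences of depth or preparation cannot be told apart from strain there.

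Before any strain difference is read, 2 libraries need naming because their expression went against their strain labels. With both libraries labelled uninjured replicate 4 set aside, 148 genes separated the 7 remaining MRL libraries from the 7 remaining C57 libraries by more than 1 on the log2(CPM + 0.25) scale. The library labelled C57 uninjured replicate 4 was on the MRL side for 137 of these 148 genes. The library labelled MRL uninjured replicate 4 lay on the C57 side for 136 of them. Gpx3, an extracellular glutathione peroxidase picked after its values were seen, stood at 1071 to 6055 CPM on total counts in the other C57 libraries and at 64.5 CPM in that C57 library. It had 5199 CPM in the library labelled MRL uninjured replicate 4 and 72.4 to 258 CPM in the other MRL libraries. Setting aside the other same-numbered uninjured pairs left 1, 3 or 2 separating genes. No library was moved to another group. The differences called below and those of the 7 genes that turn on these libraries are given with and without them.

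Gsn was the most abundant transcript of the family by a wide margin, and its level was lower in injured tendon of both strains. In uninjured C57 tendon it stood at 39500, 40163, 35793 and 28222 CPM in replicates 1 to 4. In uninjured MRL tendon it stood at 83965, 69950, 73668 and 41435 CPM. These groups did not overlap, and the lowest value in each belonged to replicate 4. Overlap of groups is given here and below as a description, and the share of all genes without overlap was not counted. Injured C57 libraries held 13232, 11851, 8501 and 24630 CPM, all below every uninjured C57 library. Injured MRL libraries held 17923, 8654, 33708 and 6573 CPM, again all below every uninjured MRL library but spread over a wider range than the C57 ones. As a description, the fitted Gsn level was 2.56-fold lower after injury in C57 and 4.09-fold lower in MRL. With each library labelled uninjured replicate 4 left out, these figures were 2.74-fold and 4.55-fold. Uninjured MRL tendon was 1.85-fold above uninjured C57 tendon, and 1.96-fold with both of those libraries left out.

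As a share of all counts, Gsn ranked first in 6 of the 8 uninjured libraries and second in the other 2. The share reached 8.05% in the library labelled MRL uninjured replicate 1, with a Wilson 95% interval of 8.03% to 8.06% that covers counting error only. Uninjured C57 libraries held 2.43% to 4.24% and uninjured MRL libraries 4.18% to 8.05%. Injured C57 libraries held 0.943% to 2.69% and injured MRL libraries 0.649% to 3.21%, and Gsn was first in none of these 8.

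The comparison that the choice of Gsn did not use is injured MRL against injured C57, and it showed no difference that could be detected. The mean was 16714 ± 12357 CPM in injured MRL and 14553 ± 7005 CPM in injured C57 (SD, n = 4 each), with overlapping groups. The log2 fold change was 0.16 (SE 0.52, interval -0.85 to 1.17), with an adjusted p of 0.891 in edgeR's quasi-likelihood test. Leaving out MRL injured replicate 3 turned the direction, to -0.39, and leaving out C57 injured replicate 3 gave -0.03.

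**Figure D1:**
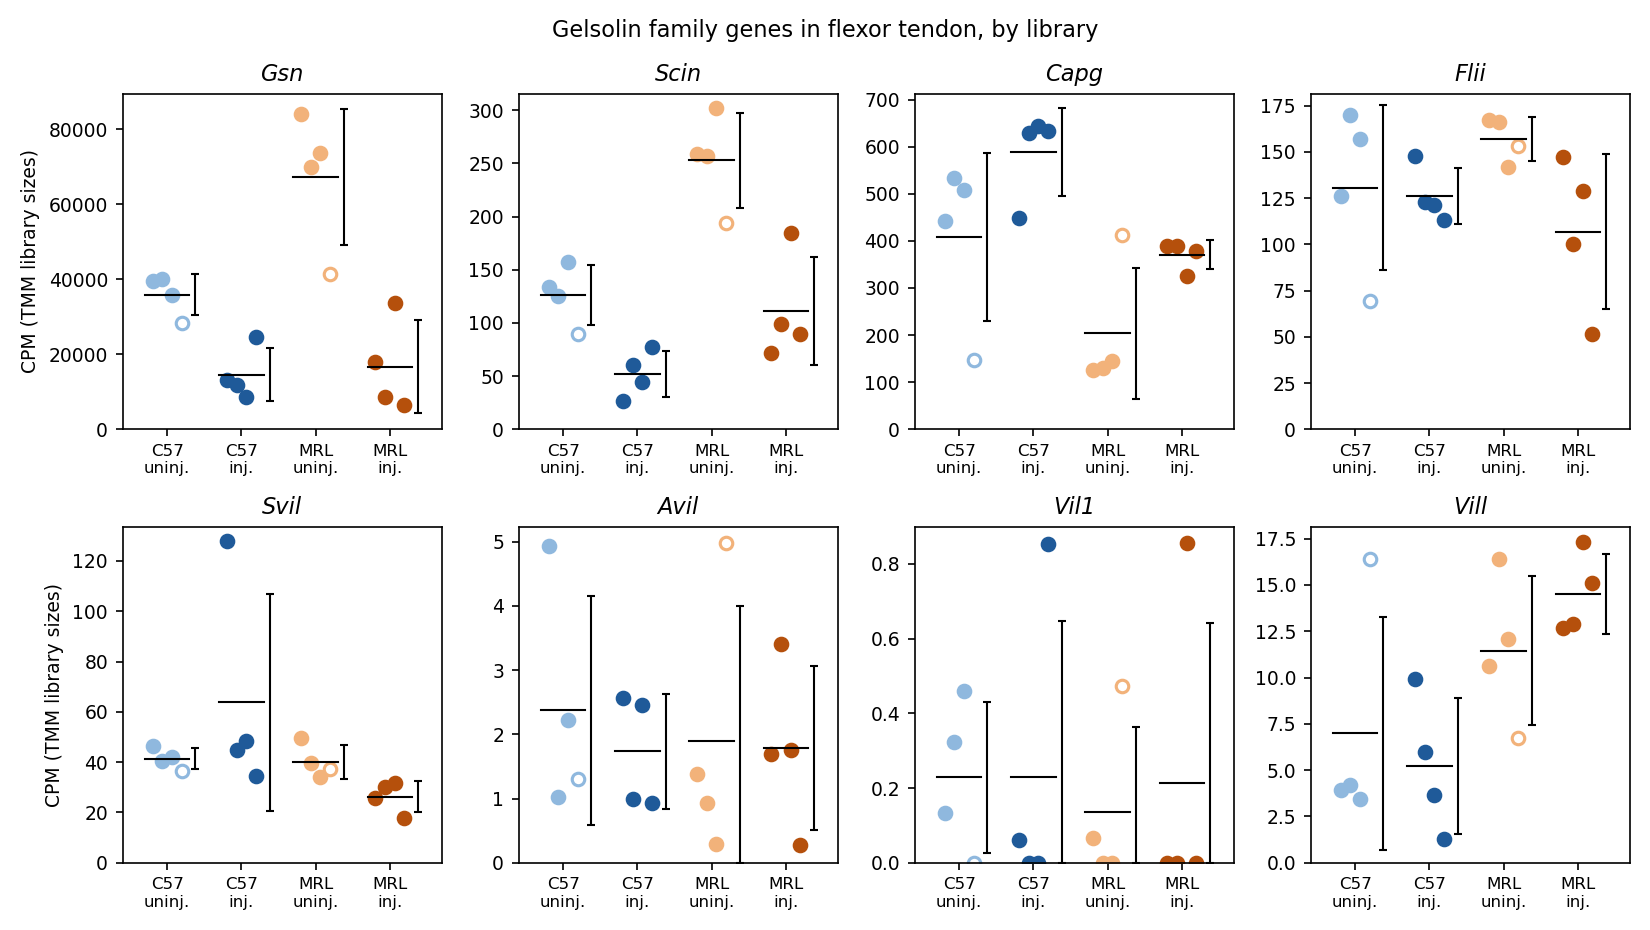
CPM (TMM library sizes, linear axes from 0) of the 7 genes and of Vill in each library, by group. Horizontal lines give the mean and the vertical bars beside them 1 SD to each side (n = 4), drawn no lower than 0. Hollow points are the libraries labelled uninjured replicate 4. Gsn and Scin sit lower in every injured library than in any uninjured library of the same strain, and the hollow Capg points (147 and 412 CPM) lie apart from their groups. The share of all genes with such a separation was not counted.

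Scin, which cuts and caps filaments as Gsn does, was lower in injured than uninjured tendon of both strains. Its uninjured C57 values were 134, 125, 157 and 89.4 CPM, and its injured C57 values were 26.8, 60.2, 44.7 and 77.6 CPM. The lowest uninjured library, labelled replicate 4, was still above the highest injured one. Uninjured MRL values were 259, 257, 302 and 194 CPM, and injured MRL values were 71.5, 99, 185 and 89.8 CPM. The 2 MRL groups also did not overlap, although the highest injured value of 185 CPM came close to the 194 CPM of the library labelled MRL uninjured replicate 4.

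In MRL tendon, Scin fell 2.30-fold with injury: log2 fold change -1.20 (SE 0.27), adjusted p = 0.02 in edgeR's quasi-likelihood test. It was the 1 gene called, by an adjusted p under 0.05 and a log2 fold change beyond 1, of the 4 tested there among the 5 genes not chosen on that contrast. Of all 14274 genes tested, 7.41% were called, and 2.15% were called lower. Without the library labelled MRL uninjured replicate 4 the fall was 2.45-fold (log2 fold change -1.29, adjusted p = 0.0316), where 6.11% of all genes tested were called, made up of 1.43% lower and 4.68% higher. The call was lost on leaving out MRL uninjured replicate 1, 2 or 3 or MRL injured replicate 2, with log2 fold changes of -1.13 to -1.20 and adjusted p-values of 0.0519 to 0.0626.

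In C57 tendon the Scin difference was of like size, and whether it passed the test depended on the libraries named above. With all 8 libraries the log2 fold change was -1.33 (SE 0.32, 2.52-fold lower), with an edgeR adjusted p of 0.0855. None of the 5 tested genes among 6 was called there, against 1.07% of 14424 genes, and 1 of the 5 had an unadjusted p under 0.05, beside 15.3% of all genes tested. DESeq2 called 1, Scin, at an adjusted p of 0.0114, beside 907 of 26926 genes (3.37%). Without the library labelled C57 uninjured replicate 4 the fall was 2.76-fold (log2 fold change -1.46, SE 0.30, adjusted p = 0.0237). In that fit 5.01% of all genes tested were called, made up of 1.51% lower and 3.50% higher. With the muscle-rich library labelled C57 injured replicate 1 left out as well, Scin fell again (log2 fold change -1.20, adjusted p = 0.0101).

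The test of whether the injury difference itself differed between strains gave a log2 value of 0.07 for Scin (SE 0.44, interval -0.79 to 0.94, adjusted p = 0.971). The estimate ran from -0.27 without MRL injured replicate 3 to 0.32 without C57 injured replicate 4. The interaction was called for 0 of the 4 tested genes and for 0% of 15947 genes, with 1939 genes at an unadjusted p under 0.05. Without both libraries labelled uninjured replicate 4 it was called for 0% of 16391 genes, with 1735 at an unadjusted p under 0.05. DESeq2 called 198 genes, none of them among these.

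Scin stood higher in MRL than in C57 tendon in both states, without passing the adjusted test with all libraries. Uninjured tendon averaged 253 ± 44.4 CPM in MRL and 126 ± 28.1 CPM in C57 (SD, n = 4), with no overlap. The log2 fold change was 0.99 (SE 0.20), unadjusted p = 0.000843 and adjusted p = 0.585 in edgeR's test across all genes. In that comparison 0 of the 4 tested genes and 0% of 14055 genes were called, with 1106 genes at an unadjusted p under 0.05 and 104 genes called by DESeq2. For Scin, DESeq2 gave 0.98 with an adjusted p of 0.00641, also under the limit on size. With both libraries labelled uninjured replicate 4 left out, the means were 273 ± 25.5 CPM and 139 ± 16.4 CPM (SD, n = 3). The log2 fold change was then 0.96 (SE 0.12, interval 0.72 to 1.21) with an adjusted p of 0.00161, just short of the limit of 1 on size, and 3.48% of 14274 genes were called. In injured tendon the means were 111 ± 50.2 CPM in MRL and 52.3 ± 21.7 CPM in C57, with a log2 fold change of 1.06 (SE 0.36, adjusted p = 0.135). These injured groups overlapped. The tendon fibroblast marker sum was also higher in MRL, with medians of 91700 against 63360 CPM in uninjured and 107395 against 58879 CPM in injured tendon. Its part in the strain values of Scin and Gsn was not tested.

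Across the 16 libraries the log2 CPM of Scin and Gsn had a Pearson correlation of 0.80, which ranked Scin 154th among 9447 genes with a mean of at least 10 CPM. Without both libraries labelled uninjured replicate 4 it was again 0.80, with a rank of 266, and without the C57 one alone the rank was 235. The points share libraries, depth and the injury contrast, so the value is a description. Within libraries the Gsn to Scin ratio of CPM had a median of 305 in uninjured C57, 257 in injured C57, 258 in uninjured MRL and 135 in injured MRL. In injured MRL libraries it ran from 73.2 to 251.

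**Figure D2:**
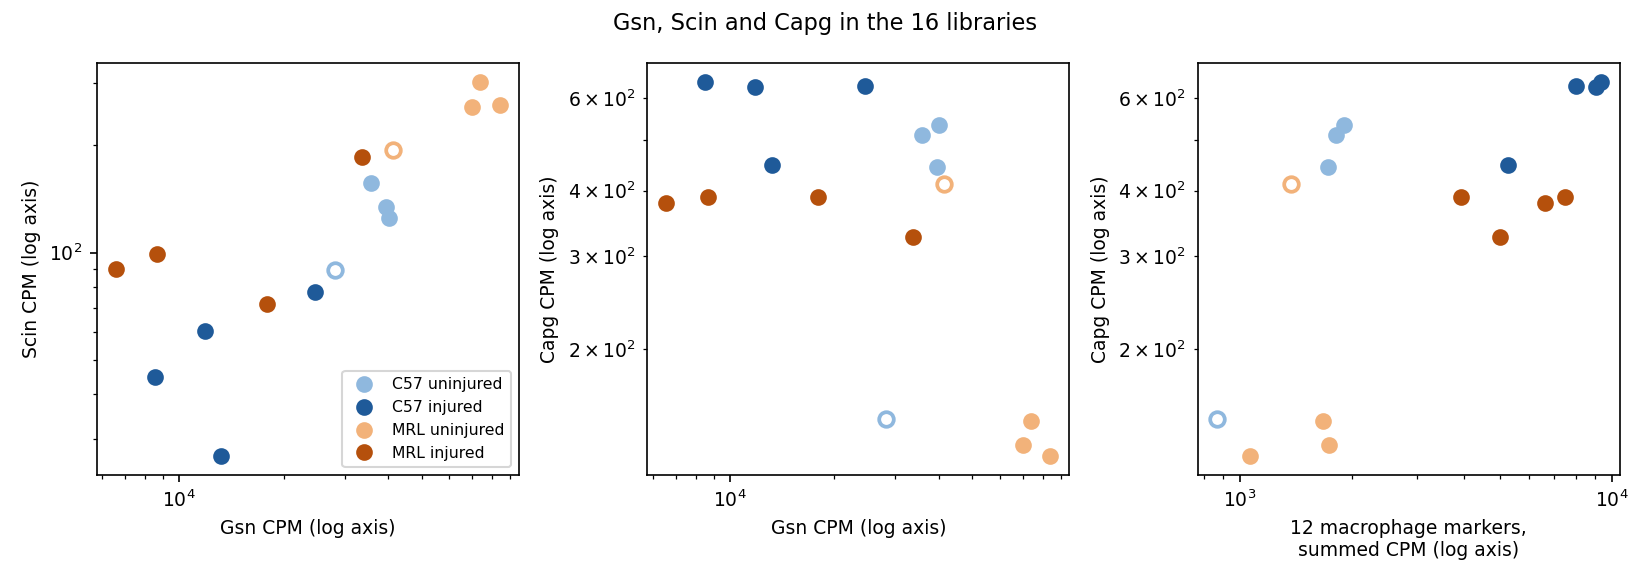
Scin against Gsn, Capg against Gsn, and Capg against the summed CPM of 12 macrophage markers, 1 point per library, all axes logarithmic. Filled points are 14 libraries by group, and hollow points are the libraries labelled uninjured replicate 4. Scin runs with Gsn (r = 0.80 on log2 CPM). The hollow C57 point has 147 CPM of Capg, close to the 3 filled uninjured MRL points at 125 to 146 CPM.

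Capg, the family's pure capping protein, had a different pattern from Gsn and Scin. In uninjured C57 tendon it was at 443, 533, 509 and 147 CPM in replicates 1 to 4. In uninjured MRL tendon it was at 125, 131, 146 and 412 CPM. Replicates 1 to 3 of the strains were far apart, and each replicate 4 lay near the values of the other strain. Injured C57 libraries held 448, 628, 644 and 633 CPM, and injured MRL libraries held 389, 389, 326 and 379 CPM. All injured C57 values were above all injured MRL values.

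The only Capg comparison not used in choosing it is injury in C57, and there it was not called. The log2 fold change was 0.48 (SE 0.37, interval -0.24 to 1.19), with an adjusted p of 0.578 in edgeR's test. Without the library labelled C57 uninjured replicate 4 it was 0.20 (SE 0.17, adjusted p = 0.554). The macrophage marker sum in the same libraries was 867 to 1911 CPM before and 5258 to 9356 CPM after injury, with all 12 markers present in every injured library. Its part in the Capg values was not tested. As a description, Capg was 1.8-fold higher in injured than uninjured MRL libraries, and 2.78-fold without the library labelled MRL uninjured replicate 4. It was 2.01-fold lower in uninjured MRL than uninjured C57 libraries, and 3.73-fold lower with both libraries labelled replicate 4 left out, at 134 ± 11 against 495 ± 46.9 CPM (SD, n = 3). Among injured libraries MRL was 1.62-fold below C57.

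The Gsn to Capg ratio of CPM within a library put these patterns together. It was 70.3 to 192 in uninjured C57 libraries, where the highest belonged to replicate 4, and 101 to 673 in uninjured MRL libraries, where the lowest belonged to replicate 4. After injury it was 13.2 to 38.9 in C57 and 17.3 to 103 in MRL. The log2 CPM of Capg and Gsn had a Pearson correlation of -0.61 over the 16 libraries, and of -0.67 without both libraries labelled uninjured replicate 4.

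To compare genes with each other, CPM was divided by the length of the gene's merged exons. Per kilobase, Gsn was the highest of the family in all 16 libraries, with group means from 4610 ± 2219 to 21303 ± 5767 CPM per kb (SD, n = 4). Capg came second in 13 libraries. In the 3 libraries labelled MRL uninjured replicates 1 to 3, Scin came second instead. Group means for Scin ran from 17.4 ± 7.23 to 84.4 ± 14.8 CPM per kb, against 80.4 ± 55.1 to 233 ± 37.1 CPM per kb for Capg.

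In the mouse genome (GRCm38, GENCODE M21) Gsn lies on chromosome 2 from 35256380 to 35307892 on the plus strand. Scin lies on chromosome 12 from 40059769 to 40134228 on the minus strand, and Capg on chromosome 6 from 72544391 to 72562983 on the plus strand. The RefSeq table used here gives 3 transcription starts for Gsn, and the counts pool them, so cytoplasmic and secreted forms could not be told apart. The 250 bases before each start are shown for the 3 genes the results turn on, because Gsn and Scin were both lower after injury and Capg was not. The windows are chr2:35256109-35256358, chr2:35266494-35266743 and chr2:35282130-35282379 for Gsn, chr12:40134229-40134478 (minus strand) for Scin and chr6:72549397-72549646 for Capg, from RefSeq on GRCm38.p6, written 5′ to 3′. Capitals mark matches on either strand to the GC box letters GGGCGG, the AP-1 letters TGANTCA, the letters CCAAT of the box of that name, the TATA box letters TATAAA or the purine-rich ETS-type letters GAGGAAG.
Gsn start 1: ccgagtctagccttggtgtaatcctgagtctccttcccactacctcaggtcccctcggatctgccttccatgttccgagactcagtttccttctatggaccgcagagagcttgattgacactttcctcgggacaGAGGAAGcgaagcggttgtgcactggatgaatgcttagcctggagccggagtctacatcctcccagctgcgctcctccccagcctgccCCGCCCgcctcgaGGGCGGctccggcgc
Gsn start 2: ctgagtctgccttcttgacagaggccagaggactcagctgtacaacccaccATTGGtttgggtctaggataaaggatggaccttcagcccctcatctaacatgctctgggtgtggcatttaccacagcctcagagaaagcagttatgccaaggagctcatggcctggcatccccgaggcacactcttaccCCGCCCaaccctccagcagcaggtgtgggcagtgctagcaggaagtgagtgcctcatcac
Gsn start 3: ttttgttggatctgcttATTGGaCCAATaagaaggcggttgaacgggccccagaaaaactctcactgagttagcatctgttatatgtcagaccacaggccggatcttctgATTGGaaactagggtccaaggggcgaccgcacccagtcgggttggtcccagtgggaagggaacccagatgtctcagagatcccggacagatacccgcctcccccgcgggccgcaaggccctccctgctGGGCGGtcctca
Scin: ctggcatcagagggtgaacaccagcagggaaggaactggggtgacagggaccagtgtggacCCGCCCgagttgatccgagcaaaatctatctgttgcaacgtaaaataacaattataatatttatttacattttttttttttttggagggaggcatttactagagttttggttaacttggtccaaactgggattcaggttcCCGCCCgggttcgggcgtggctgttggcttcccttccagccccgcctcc
Capg: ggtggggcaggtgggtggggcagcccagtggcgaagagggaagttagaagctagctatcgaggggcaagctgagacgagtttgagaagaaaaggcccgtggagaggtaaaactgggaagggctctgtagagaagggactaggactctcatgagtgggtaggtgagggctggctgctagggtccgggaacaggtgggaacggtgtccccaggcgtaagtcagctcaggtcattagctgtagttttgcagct

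The Capg window and the Gsn windows of starts 2 and 3 lie inside the GENCODE gene spans, so the sequence before the outermost annotated Capg start was not examined. The letters GGGCGG occurred in each Gsn window and 2 times in the Scin window, and not in the Capg window. Among windows not shown, they occurred 1 time for Vil1 and not for Flii, Avil or Vill. GGGCGG was in 32.7% of 32851 RefSeq windows of this length. CCAAT occurred 1 time at the second and 3 times at the third Gsn start, against 33.8% of all windows with a match. GAGGAAG occurred 1 time at the first Gsn start, against 10.6% of windows. The letters TGANTCA (6.75% of windows) and TATAAA (12.4%) were in none of the 5. A match describes the letters of the window only.

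Supervillin and flightless, the larger proteins of the family, were expressed at moderate levels and edgeR called neither in any comparison. Svil held 46.3, 40.5, 42.1 and 36.3 CPM in uninjured C57 and 49.6, 39.6, 34.1 and 37.4 CPM in uninjured MRL libraries. Those groups overlapped closely, with a log2 fold change of -0.06 (SE 0.18). After injury Svil was at 128, 44.7, 48.3 and 34.5 CPM in C57 and at 25.6, 30.0, 31.8 and 17.9 CPM in MRL. The highest value belonged to the muscle-rich library labelled C57 injured replicate 1, and every injured C57 value was above every injured MRL value.

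The Svil differences with injury pointed opposite ways in the strains, and neither was called. In MRL DESeq2 gave -0.63 with an adjusted p of 0.0435, inside the limit on size. There edgeR's log2 fold change was -0.63 (SE 0.21, adjusted p = 0.0872), with no overlap between groups, and -0.64 (adjusted p = 0.139) without the library labelled MRL uninjured replicate 4. In C57 it was 0.60 (SE 0.40, adjusted p = 0.525), and it became -0.02 once the muscle-rich library and the epidermis-rich one were both left out. The interaction was -1.26 (SE 0.46, adjusted p = 0.344), and -0.61 without those 2 C57 libraries. Injured MRL against injured C57 gave -1.33 (SE 0.41, adjusted p = 0.103), and -0.72 without the muscle-rich library. That library held 6.07% of its counts in the 12 skeletal muscle markers. C57 injured replicate 2, which stayed in these fits, held 0.199%, and the other injured libraries held 0.000744% to 0.00133%. The part of muscle in the Svil values was not tested. Of 5 tested among 6 genes, 0 were called in the injured strain comparison, where 3.43% of 14626 genes were called. There 2 of the 5, Scin and Svil, had an unadjusted p under 0.05, beside 21.2% of all genes tested. DESeq2 called 1, Svil, beside 1488 of 27090 genes (5.49%).

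Flii overlapped between the groups in every comparison. It held 69.5 to 170 CPM in uninjured C57, 113 to 148 CPM in injured C57, 142 to 167 CPM in uninjured MRL and 51.4 to 147 CPM in injured MRL libraries. The lowest uninjured value belonged to the library labelled C57 uninjured replicate 4, and the lowest of all to MRL injured replicate 4. The log2 fold change with injury was -0.10 (SE 0.27, adjusted p = 0.912) in C57 and -0.57 (SE 0.26, adjusted p = 0.18) in MRL. Without the libraries labelled uninjured replicate 4 these were -0.31 and -0.57. Flii overlaps the opposite-strand gene Llgl1, and whether counting used strand is not stated.

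**Figure D3:**
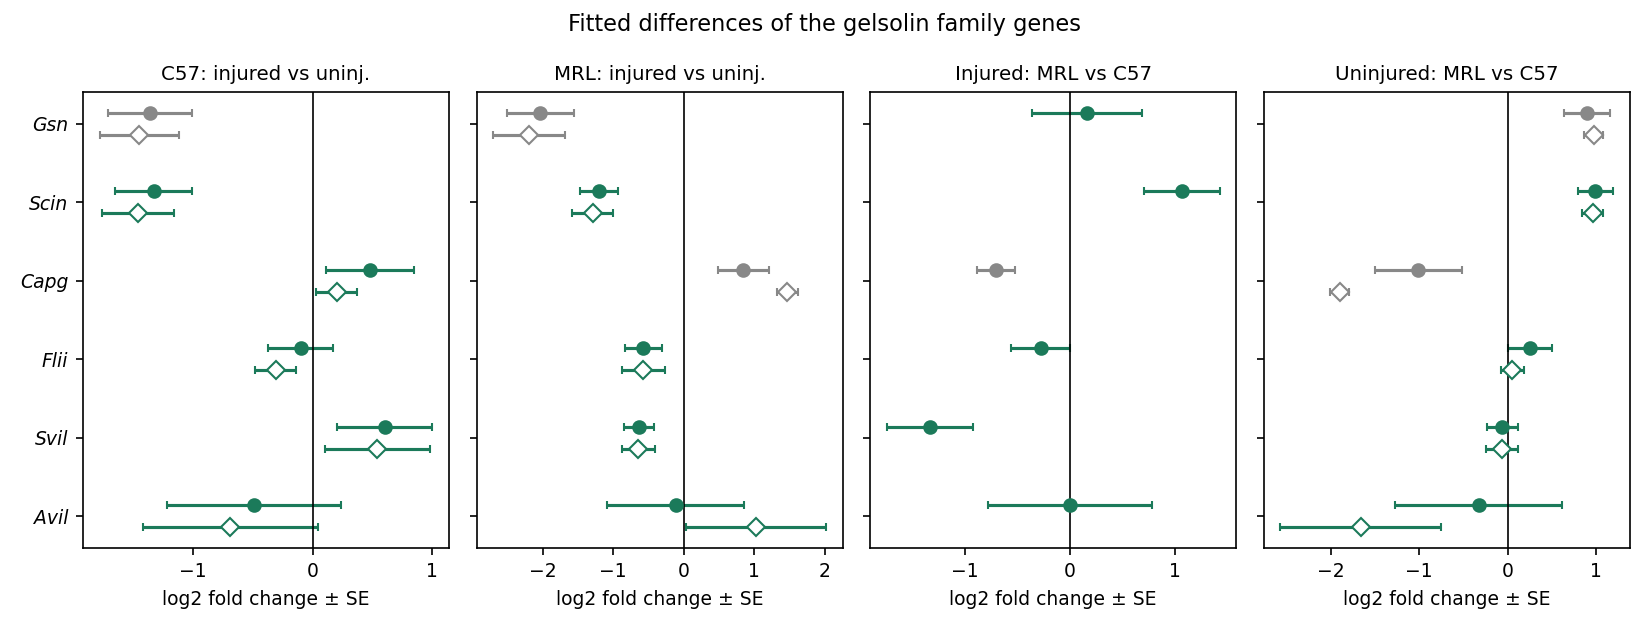
Fitted log2 fold changes from edgeR, with SE derived from its F value, for 6 genes in 4 comparisons. Filled circles use all 8 libraries and hollow diamonds leave out the libraries labelled uninjured replicate 4, which are in no injured comparison, and the axes differ between panels. Grey marks comparisons that contain the libraries on which the gene was chosen. Scin lies below 0 with injury in both strains, at -1.33 and -1.20, and moves little without those libraries.

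The villin-type genes Vil1 and Avil had few counts in tendon. Vil1 had 0 counts in 8 of 16 libraries and more than 3 counts in 5, with a maximum of 19 counts. A count of 0 allows up to 3 counts, which is 0.128 to 0.215 CPM in those 8 libraries. Vil1 passed the filter on low counts in no comparison. With no filter, edgeR gave it log2 fold changes with injury of -0.06 (SE 1.79) in C57 and 0.65 (SE 2.02) in MRL, neither called. Avil had 5 to 75 counts, or 0.273 to 4.98 CPM. Its log2 fold change with injury was -0.49 (SE 0.73) in C57 and -0.11 (SE 0.97) in MRL, neither called, and the MRL value became 1.03 (SE 0.99, adjusted p = 0.564) without the library labelled MRL uninjured replicate 4. Its uninjured strain difference was -0.33 (SE 0.94) and became -1.66 (SE 0.91, adjusted p = 0.385) without both libraries labelled uninjured replicate 4. Its interaction went likewise from 0.34 (SE 1.26) to 1.67 (SE 1.23, adjusted p = 0.663). Avil overlaps Tsfm, and Vil1 overlaps Usp37, which had up to 252 counts, both on the opposite strand.

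Vill, the villin-like gene of the family that is not among the 7, was followed as a further relative. It held 3.94, 4.19, 3.44 and 16.4 CPM in uninjured C57 and 10.6, 16.4, 12.1 and 6.71 CPM in uninjured MRL libraries. Each replicate 4 again lay on the side of the other strain. With all libraries the strain log2 fold change was 0.67 (SE 0.58, adjusted p = 0.779). With both libraries labelled replicate 4 left out, Vill was 3.34-fold higher in MRL (log2 fold change 1.74, SE 0.34, adjusted p = 0.0172), and C57 averaged 3.86 ± 0.382 CPM against 13 ± 3.00 CPM (SD, n = 3). In injured tendon it was 12.7 to 17.3 CPM in MRL and 1.28 to 9.92 CPM in C57, without overlap, with a log2 fold change of 1.43 (SE 0.53, adjusted p = 0.16). The epidermis-rich library labelled C57 uninjured replicate 4 carried the highest uninjured C57 value of Vill, and the part of epidermis in it was not tested.

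The genes whose log2 CPM ran most like Gsn over the 16 libraries were Fzd9 (r = 0.955), a Wnt receptor, Setbp1 (r = 0.944), Sgip1 (r = 0.937), an endocytic adaptor, Kmt2e (r = 0.936), a chromatin reader, and Ctsf (r = 0.933), a lysosomal protease. Fzd9 averaged 176 ± 40.4 CPM in uninjured and 42.0 ± 29.3 CPM in injured MRL libraries, and 88.0 ± 28.1 CPM and 26.8 ± 9.82 CPM in C57 (SD, n = 4). Those most like Capg were Lair1 (r = 0.912), an inhibitory receptor of leukocytes, Cd14 (r = 0.899), a co-receptor for bacterial lipopolysaccharide, Tmed2 (r = 0.894), a cargo receptor, Psmd8 (r = 0.893), a proteasome subunit, and Crlf2 (r = 0.888), a cytokine receptor. Lair1 averaged 26.5 ± 15.9 CPM in uninjured and 59.8 ± 24.5 CPM in injured C57 libraries, and 10.2 ± 7.20 CPM and 29.8 ± 16.8 CPM in MRL. These correlations were ranked over 9447 genes and are a description. With Spearman's rank correlation 3 of the 5 genes stayed for Gsn and 1 of the 5, Psmd8, for Capg. Without both libraries labelled uninjured replicate 4, Fzd9, Setbp1 and Ctsf stayed among the 5 most like Gsn, and Psmd8 and Lair1 among the 5 most like Capg. Sgip1 and Kmt2e then ranked 6 and 8 for Gsn, and Tmed2, Cd14 and Crlf2 ranked 14, 15 and 16 for Capg.

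Other genes that build or take apart actin filaments were followed beside the family. The list of 53 held filament cutters and depolymerisers, capping proteins, monomer binders, the Arp2/3 complex, actins, cofilin kinases and phosphatases, and bundlers. In MRL tendon 51 of them were tested, and 9 rose and none fell with injury, where 5.25% of all genes were called higher and 2.15% lower. Their median log2 fold change was 0.51, beside -0.03 over all genes tested. Without the library labelled MRL uninjured replicate 4, 8 rose, beside 4.68% of all genes. In C57 tendon all 53 were tested, and 2 rose and 1 fell, where 0.908% of all genes were called higher and 0.166% lower. Their median was 0.39, beside -0.05 over all genes, and leaving out the library labelled C57 uninjured replicate 4 gave 4 and 1, beside 3.50% of all genes higher and 1.51% lower. Leaving out another C57 library lowered the calls over all genes and over this list together. Of the 53, 0 were called without C57 uninjured replicate 1, 2 or 3 or C57 injured replicate 2, where 0.0667% to 0.162% of all genes were called. Without C57 injured replicate 1, 3 or 4 there was 1, where 0.101% to 0.620% of all genes were called. In MRL leaving out 1 library gave 6 calls (without MRL injured replicate 4, where 5.48% of all genes were called) to 12 calls (without MRL injured replicate 3, where 8.58% were). The interaction was called for none of the 53 by edgeR, so no strain difference in the response of these genes was shown.

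Among the cutters and depolymerisers, Coro1a, a coronin of leukocytes, rose from 14 ± 4.29 to 86.9 ± 17.4 CPM in MRL (SD, n = 4; log2 fold change 2.62, adjusted p = 0.000876 in edgeR's test). In C57 it rose from 23.2 ± 5.60 to 93.1 ± 27.6 CPM (log2 fold change 1.95, adjusted p = 0.0163). In neither strain did the groups overlap. Cofilin (Cfl1), which cuts aged filaments, rose in MRL from 458 ± 32.2 to 970 ± 189 CPM (log2 fold change 1.08, adjusted p = 0.00507). In C57 Cfl1 stood at 505 ± 48.8 and 682 ± 141 CPM (log2 fold change 0.38, adjusted p = 0.411). Its interaction was 0.64 (SE 0.26, adjusted p = 0.359), not called. Gmfg, a debrancher of Arp2/3 networks, rose in MRL with a log2 fold change of 1.62 (adjusted p = 0.03), and in C57 it was at 1.5 (adjusted p = 0.0851). Without the libraries labelled uninjured replicate 4 these became 1.56 (adjusted p = 0.0685) and 1.71 (adjusted p = 0.0225), so the Gmfg call passed from MRL to C57. Destrin (Dstn), a close relative of cofilin, fell in C57 from 2042 ± 286 to 924 ± 147 CPM (log2 fold change -1.20, adjusted p = 0.039). In MRL the Dstn log2 fold change was -0.81 (adjusted p = 0.0376), inside the limit on size, and -0.55 (adjusted p = 0.056) without the library labelled MRL uninjured replicate 4. Coro1a and Dstn in C57 and Coro1a and Cfl1 in MRL kept their calls without those libraries. The C57 calls were lost without C57 uninjured replicate 1, 2 or 3 or C57 injured replicate 2, as given above.

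Of the 4 monomer-binding genes 3 rose in MRL. They were profilin (Pfn1; log2 fold change 1.38, adjusted p = 0.00446), Tmsb10 (1.47, 0.00999) and Tmsb4x (1.17, 0.0214), the last 2 being thymosins that hold actin monomers. Pfn1 went from 409 ± 77.4 to 1066 ± 251 CPM in MRL and stood at 428 ± 202 and 495 ± 86.6 CPM in C57 (SD, n = 4). In C57 all 4 had positive log2 fold changes, with a median of 0.68, and none was called. The interaction was 1.16 (SE 0.39, adjusted p = 0.339) for Pfn1, 0.87 (SE 0.44, adjusted p = 0.439) for Tmsb10 and 0.31 (SE 0.34, adjusted p = 0.767) for Tmsb4x. Without both libraries labelled uninjured replicate 4 it was 0.66 (SE 0.27), 1.06 (SE 0.43) and 0.22 (SE 0.34), none called. Of the 6 bundling genes, fascin (Fscn1), found in cell protrusions, rose in MRL (2.95, adjusted p = 0.00124) and in C57 (2.55, adjusted p = 0.0484). Actn1 (1.76, adjusted p = 0.00172) and the leukocyte plastin Lcp1 (2.34, adjusted p = 0.00209) rose in MRL. In C57 Actn1 was at 1.10 (adjusted p = 0.257) and Lcp1 at 1.90 (adjusted p = 0.0593). Lcp1 passed there, at 1.69 (adjusted p = 0.0275), without the library labelled C57 uninjured replicate 4. Fscn1 in both strains and the monomer-binding and bundling genes called in MRL kept their calls without those libraries, Tmsb4x at an adjusted p of 0.0484. In C57 the Fscn1 call was lost without C57 uninjured replicate 1, 2 or 3 or C57 injured replicate 2. Coro1a, Gmfg and Lcp1 are known from blood cells, and the macrophage marker sum rose beside them in both strains as given above, a part that was not tested. Of the capping genes, the Arp2/3 complex, the actins and the cofilin kinases and phosphatases, none was called in either strain by edgeR. Of the 9 Arp2/3 genes, which nucleate branched filaments, 6 were higher in injured MRL tendon at an adjusted p under 0.05 but inside the limit on size, beside 7.73% of all genes tested that were higher at that adjusted p, whatever their size. Among the 6 were Arpc2 (0.92, adjusted p = 0.00605) and Actr3 (0.81, adjusted p = 0.00692). The median of the 9 was 0.81 in MRL and 0.25 in C57. In C57 none had an adjusted p under 0.05, beside 1.13% of all genes tested there, of which 0.929% were higher. The fitted value of Acta1, skeletal muscle actin, was large in C57 (log2 fold change 14.42, SE 4.18, adjusted p = 0.169). The muscle markers, Acta1 among them, summed to 61631 CPM in C57 injured replicate 1 and 1858 CPM in C57 injured replicate 2. The part of these libraries in the Acta1 value was not tested.

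**Figure D4:**
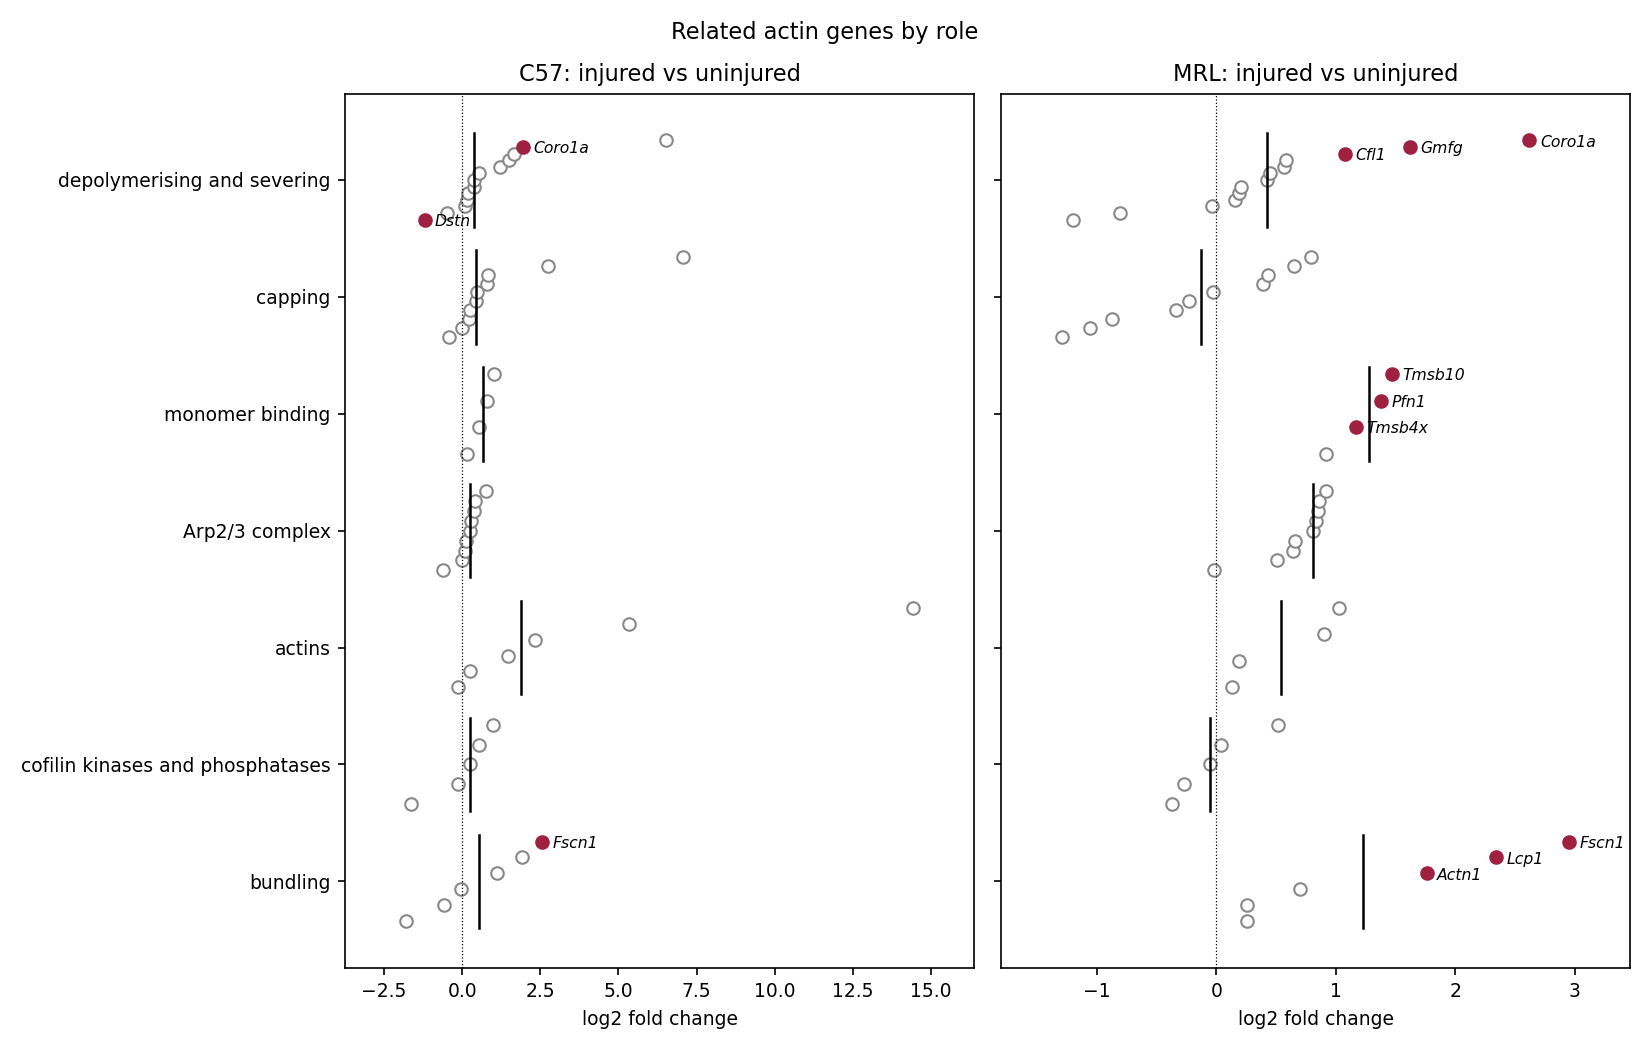
Log2 fold changes with injury of the related actin genes, grouped by role, in C57 (53 genes) and MRL (51 genes), on separate axes. Filled points are called, and vertical lines are medians of a role. In MRL 9 genes rose, led by Fscn1 at 2.95, while in C57 2 rose and Dstn fell.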

How the data were processed

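Total RNA of single flexor tendons was sequenced as 16 libraries. The labels name one library kit and the study's methods another, a pre-amplified one, so the steps before sequencing are uncertain here. Per the submitters' processing notes, reads were trimmed with Trimmomatic 0.36, aligned with STAR 2.5.2b to GRCm38.p5 and counted with featureCounts of Subread 1.5.0p3, and DESeq2 1.14.1 is also named. The gene annotation and the use of strand are not given in the sources used here. The authors deposited raw counts per gene symbol, with no normalization. No column was left unmapped.

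The genes, the related lists and the tests were chosen with earlier results of these data known. Each comparison was fitted on its 8 libraries (the interaction on all 16) with edgeR 4.0.16 in R 4.3.3 (robust quasi-likelihood, filterByExpr, TMM), after the code was tested on simulated data. Genes were called at a Benjamini-Hochberg adjusted p under 0.05 over all genes tested and an absolute log2 fold change over 1; the interaction needed the p alone. P-values are two-sided. The study's methods give 4 animals per group, which with 4 libraries is 1 mouse per library, so p-values measure the spread between mice. Named genes were the 7 members, Vill, up to 3 called genes of each actin role and injury comparison, and the 5 genes most correlated with Gsn and with Capg. CPM used TMM library sizes over all 16 libraries, and log2 CPM a prior count of 2. The alternatives were upper-quartile and total-count scaling, DESeq2 1.42.0, no filter, a fit of all 16 libraries, a replicate block and leaving out libraries. Leaving out both libraries labelled uninjured replicate 4 together, and the fits of single actin genes without them and for the interaction, were chosen after seeing the data. Deviations of same-numbered uninjured libraries of the strains from their group means had correlations of -0.59, 0.24, -0.21 and -0.33 for replicates 1 to 4, above 0.1 in 1 of the 4 pairs, and the pairs are of different strains, so the numbers were not taken to pair them.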

Additional observations from a re-analysis of the deposited data

Results flagged for a closer look

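In groups of 4, a library was marked where its gap to the nearest other library exceeded Dixon's 95% limit as a share of the group's range. Of 32 groups examined 8 were marked, where chance marks about 1 in 20. For Capg, the library labelled MRL uninjured replicate 4 was high at 412 CPM against 125 to 146 CPM in the others. The library labelled C57 injured replicate 1 was low at 448 CPM against 628 to 644 CPM, and MRL injured replicate 3 was low at 326 CPM against 379 to 389 CPM. Svil was high in the library labelled C57 injured replicate 1, at 128 CPM against 34.5 to 48.3 CPM. Vill was high in the library labelled C57 uninjured replicate 4, at 16.4 CPM against 3.44 to 4.19 CPM.

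Vil1 was high in C57 injured replicate 4 (0.854 CPM, others up to 0.0613), in the library labelled MRL uninjured replicate 4 (0.474 CPM, others up to 0.0656) and in MRL injured replicate 3 (0.856 CPM, others at 0). These Vil1 values rest on 12, 6 and 19 counts.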

How the results depend on the processing

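The Scin difference with injury kept its direction in every fit run. In C57 it also passed in DESeq2 (-1.27, adjusted p = 0.0114) and in the fit of all 16 libraries (-1.28, adjusted p = 0.0431). The count of called members in C57 was then 1 in DESeq2, in the fit of all 16 libraries and without the 2 marker-rich C57 libraries. In injured MRL against injured C57, DESeq2 called 1, Svil (adjusted p = 0.0263). Leaving out 1 library at a time gave 0 to 1 called members in C57 and 0 to 1 in MRL. It gave 0 to 5 related actin genes in C57, against 3 with all libraries. That actin count was 1 with upper-quartile scaling, 6 in DESeq2, 6 in the fit of all 16 libraries and 5 without the marker-rich libraries.

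All genes called in C57 numbered 155, against 907 in DESeq2, 367 in the fit of all 16 and 867 without the marker-rich libraries, and 10 (C57 uninjured replicate 3) to 750 (the library labelled C57 uninjured replicate 4) with 1 library left out. In MRL they numbered 1057, against 1818 in DESeq2 and 689 to 1260 with 1 left out. For injured tendon 502 became 1488 in DESeq2, 227 in the fit of all 16 and 231 to 481 with 1 left out. For uninjured tendon 0 became 104 in DESeq2, 1 with no filter, 0 to 3 with 1 left out and 497 without both libraries labelled replicate 4. The interaction went from 0 to 198 in DESeq2. The cause of these moves was not tested.

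No value whose direction turned had passed a test. Flii in C57 became 0.01 on total counts and ran from -0.31 to 0.05 with 1 library left out. Svil in C57 became -0.02 without the marker-rich libraries. Avil in injured tendon became 0.04 with upper-quartile scaling and 0.02 with no filter and in the fit of all 16. With 1 library left out Avil ran from -0.74 to 0.15 in C57, -0.63 to 1.03 in MRL, -0.48 to 0.40 in injured tendon, -1.45 to 0.32 in uninjured tendon and -0.29 to 1.47 for the interaction. Gsn in injured tendon ran from -0.39 to 0.53, Svil in uninjured tendon from -0.16 to 0.04 and Vill in C57 from -0.97 to 0.40. The Scin interaction became -0.04 on total counts and -0.01 without the marker-rich libraries, and ran from -0.27 to 0.32. The Vill interaction became -0.29 without both libraries labelled replicate 4 and ran from -0.11 to 1.27. With the replicate block in uninjured tendon, 0 members were called and Scin was 1.00 (adjusted p = 0.786).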
